A study of Mus musculus with 3 samples.

Results

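The loci described here are 6 windows of the mouse genome that hold 8 developmental regulator genes: Sall1, Foxd2, the pair Dlx5 and Dlx6, the pair Tlx1 and Lbx1, Prdm16 and Pax6. They were measured in ID8, an ovarian cancer cell line from C57BL/6 mice labelled as female ovarian surface epithelial cells, in 1 group of 3 libraries with no treatment and no control group. The cells were grown in RPMI medium with fetal bovine serum and gentamicin. DNA methylation was read by digital restriction enzyme analysis of methylation (DREAM). CCCGGG sites are cut first by SmaI, which CpG methylation blocks, and then by XmaI, which it does not block, so that the fragment end shows whether a site was methylated. The level of a site is the methylated share of its reads, and a level here is a mean over libraries with its SD. A site with at least 10 reads in every library is called covered, and a covered site is low under 10%, partial from 10% to under 70% and high at 70% or more.

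The windows were chosen from their position and as loci with methylated dense sites in these same libraries, so levels in them are given as a description, without a test. This trait does not hold equally for each window. No site in the Pax6 window has 2 or more other listed sites within 500 bp, most covered Foxd2 sites were low, and the crowded Dlx5-Dlx6 sites were partial. They held 159 of the 173449 listed sites and 72 of the 24112 covered sites. The 3 libraries had 7689526, 9190335 and 10361138 reads in replicates 1, 2 and 3, and the covered sites of the windows had a median of 218, 273 and 322.5 reads. Separate cultures are not stated for the 3 libraries, and the spread between them may be technical. The labelled cell type could not be checked against marker genes, since no expression was measured.

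All 8 genes encode DNA-binding transcription factors or regulators that set cell identity in the embryo. The starts of such genes usually lie in long stretches rich in CpG, which are as a rule unmethylated in normal tissue, and which Polycomb proteins often hold silent where the gene is not used. In cancer cells and long-cultured lines, stretches of this kind are known to gain DNA methylation more often than other CpG-rich starts. Sall1 is a zinc finger factor needed for kidney development, and Foxd2 is a forkhead factor of embryonic mesenchyme. Dlx5 and Dlx6 are neighbouring homeobox genes of the face, limb and forebrain, and Tlx1 is a homeobox gene needed to form the spleen. Lbx1 is a homeobox gene of migrating muscle precursors and dorsal spinal cord neurons. Prdm16 is a zinc finger regulator of brown fat and of blood stem cells, and Pax6 is the paired-box gene of eye, brain and pancreas development.

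Sall1 was the only one of these genes whose start regions could be tied to listed sites. The RefSeq promoter table (build GRCm38.p6) held 5 of the 8 genes with 8 start windows, each with 250 bases before and 50 after a start. CCCGGG, which reads the same on both strands, was found in 4 of these 8 windows, against 13.5% of all 32851 windows in the table. The genes were chosen with dense CCCGGG sites around them, so this share is not a result about them. The Sall1 sequences of the minus strand are shown because their 3 sites have spacings of 33 and 531 bases. This order of spacings was found once among all listed sites, at positions 91566824, 91566857 and 91567388 of chromosome 8 (mm9), inside the Sall1 window. The capitals mark CCCGGG. The first sequence is chr8:89042863-89043112 (GRCm38.p6, minus strand), the 250 bases before the downstream start. The second is chr8:89043483-89043762, with 250 bases before and 30 after a start further upstream.
Sall1 downstream start: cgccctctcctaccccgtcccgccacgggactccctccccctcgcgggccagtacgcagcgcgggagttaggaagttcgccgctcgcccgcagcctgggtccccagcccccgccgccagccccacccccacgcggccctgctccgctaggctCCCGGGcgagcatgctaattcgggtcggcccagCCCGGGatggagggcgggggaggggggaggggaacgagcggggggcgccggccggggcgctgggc
Sall1 upstream start: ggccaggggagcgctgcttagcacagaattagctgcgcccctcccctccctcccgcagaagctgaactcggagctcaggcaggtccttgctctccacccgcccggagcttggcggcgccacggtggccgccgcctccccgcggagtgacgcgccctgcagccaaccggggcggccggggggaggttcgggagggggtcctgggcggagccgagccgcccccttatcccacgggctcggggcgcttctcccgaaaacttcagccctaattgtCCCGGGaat

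In the first sequence, CCCGGG begins 98 and 65 bases before the start, and in the second at base 22 after the start. The site 98 bases before the downstream start (91566857) was at 86.9%, 91.5% and 90.3% in replicates 1, 2 and 3, which gives 89.6% ± 2.38 (SD, n = 3) over 1915 summed reads. The site 65 bases before the same start (91566824) was at 47.1%, 38.6% and 41.2%, a mean of 42.3% ± 4.32, over only 129 summed reads. The site just after the upstream start (91567388) had no methylated read among 34, 51 and 48 reads, which allows a level of up to 2.26% (3 of 133 reads). In each of the 3 libraries, CCCGGG before the downstream start was methylated and CCCGGG at the upstream start was not. The third Sall1 start in the table, further upstream still, has no CCCGGG in its window.

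Along the whole Sall1 window, 13 sites were listed and 10 were covered, all within 2299 bp. The mean over covered sites was 65.1% ± 1.23 (SD, n = 3), and 6 sites were high, 2 partial and 2 low. The level was not even within the methylated stretch. The outermost site, at 91565089 and the deepest with 3206 summed reads, was at 64.1%, 62.9% and 63.4%. The highest, at 91566465, was at 98.9%, 98.9% and 99.1%. Sites at 91565860 and 91565868, only 8 bp apart, were at 98.8% ± 0.668 and 75.6% ± 3.73, with no overlap between their values in the libraries. The level fell from 89.6% at 91566857 to 2.0% ± 1.79 at 91567214, where 2 of 122 summed reads were methylated. This fall over 357 bp was 87.6 points in size, with a signed difference of -87.56 ± 3.60 (SD, n = 3). When 50 reads were required per library, the unmethylated end and the site at 42.3% were lost, and the 7 sites left averaged 86.7%.

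Foxd2 had the largest difference between adjacent covered sites in the 6 windows. Of 15 listed sites, 9 were covered, 2 of them high, 1 partial and 6 low, and their mean was 24.8% ± 0.291 (SD, n = 3). The site at 114580408 of chromosome 4, the deepest with 2212 summed reads, was at 98.7%, 99.03% and 99.8%. Its neighbour at 114580495, the highest, reached 99.6%, 99.8% and 99.7%. The next covered site, 590 bp further at 114581085, was at 0%, 0.444% and 0%, with 1 of 668 summed reads methylated. The signed difference between these sites was -99.58 points ± 0.17. The remaining low sites lay between 0% and 6.0%, and the lowest, at 114581813 and 114582111, had no methylated read among 150 and 61 summed reads, which allows up to 2.0% and 4.92%. A single partial site at 114581661 stood among them, at 15.1%, 17.2% and 18.8% (17.1% ± 1.87).

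Sites called sparsely read here missed the 10 reads in some library but reached 10 in the sum. They were not used to choose the windows, and 3 of them lie in the Foxd2 window. A site at 114580837, between the methylated and unmethylated sites, had 10 of 10 summed reads methylated (exact Clopper-Pearson 95% interval 69.2% to 100%). By these reads the change of level lay within the next 248 bp, before 114581085. The site at 114581137 stood against its surroundings: 19 of 20 summed reads were methylated (95%, interval 75.1% to 99.9%). It lies 28 bp from a covered site at 0.538% and 52 bp from another at 0.148%. On the other side of the methylated pair, at 114580153, 3 of 20 summed reads were methylated (15.0%, interval 3.21% to 37.9%), 255 bp from the site at 99.2%. The intervals cover counting error only, since copies of the same molecule may not have been collapsed. The RefSeq start window of Foxd2 holds 1 CCCGGG, which could not be matched to a listed site by spacing.

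**Figure D1:**
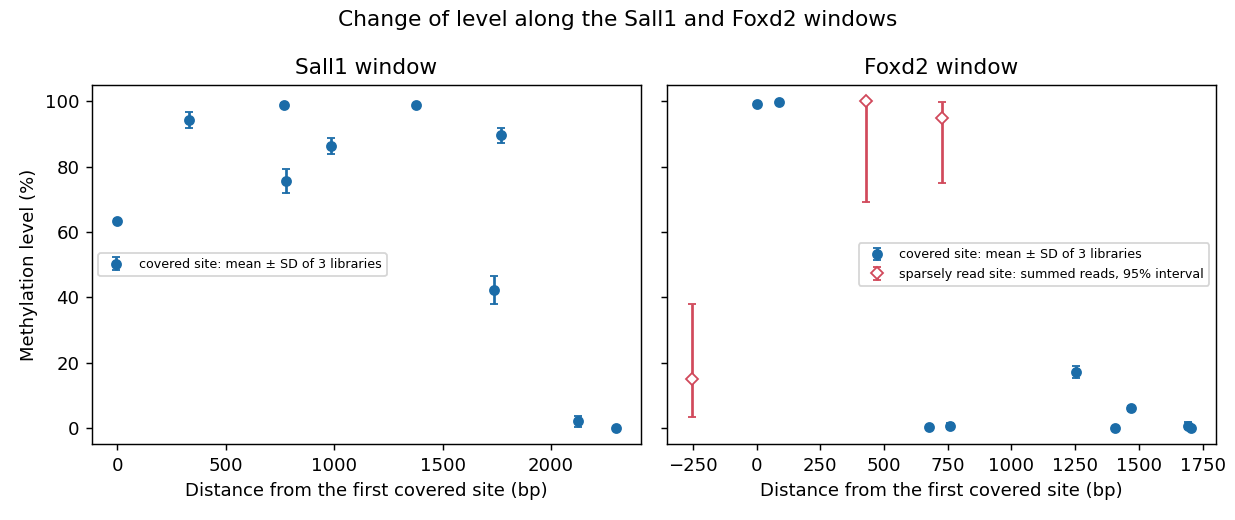
Methylation level (%) against distance from the first covered site (bp) in the Sall1 and Foxd2 windows. Filled points are covered sites (mean ± SD of 3 libraries) and open diamonds are sparsely read sites (summed reads, exact 95% interval). The largest change between adjacent covered sites goes from 89.6% to 2.0% over 357 bp in Sall1 and from 99.7% to 0.148% over 590 bp in Foxd2, where a partial site (17.1%) and a sparsely read site at 95% stand on the low side.

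The Dlx5-Dlx6 window showed middle levels instead of a change between extremes. In the RefSeq gene order Dlx6 comes before Dlx5 along chromosome 6, and the antisense genes Dlx6os1 and Dlx6os2 lie beside them, so that no site here could be given to a single gene. Only 4 of 11 listed sites were covered. The 3 neighbouring sites on the left were partial in every library. The first, at 6810640, was at 39.4%, 43.9% and 42.7%, and the second, at 6810879, at 56.5%, 56.2% and 58.4%. The third, at 6811036, the lowest of the window, was at 41.2%, 39.4% and 43.6%. Those at 6810640 and 6811036 overlapped in their library values, while the middle site was above both in each library. The fourth site, 3814 bp further at 6814850 and the deepest and highest of the window, was at 96.2%, 96.6% and 95.2% over 2324 summed reads. The difference from 6811036 to 6814850 was 54.61 points ± 2.82 (SD, n = 3), and the window mean was 59.1% ± 0.842. By the authors' adjusted percent the partial sites were higher, at 57.2%, 71.0% and 56.6%, which puts the middle one in the high class. Sparsely read sites on both sides were mostly methylated, with 13 of 15 summed reads at 6809360 and 10 of 13 at 6815281.

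The Tlx1-Lbx1 window of 100 kb held 22 covered of 47 listed sites, 11 of them high, 8 partial and 3 low, with a mean of 59.9% ± 0.545 (SD, n = 3). RefSeq places Tlx1 directly before Lbx1 on chromosome 19. The covered sites fell into a left group of 10 (45224637 to 45234744), 2 sites at 45296253 and 45297146, and a right group of 10 (45305663 to 45308336). The left group opened with methylated but thinly read sites. Its highest, at 45225348, had all of 34, 25 and 28 reads methylated. From 45229225 to 45234744 the 7 covered sites were low or partial. The deepest site of the window, at 45233188 with 6330 summed reads, was at 28.4%, 29.1% and 30.2%. Its neighbour 379 bp away, at 45233567, was at 1.57%, 1.64% and 1.33%. The same pattern came back 796 bp further: 45234363 was at 31.5%, 34.5% and 30.6%, and 45234744, the lowest site of the window, 381 bp further, at 0.268%, 0.0619% and 0.163%.

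In the right group, 9 of 10 sites were high and 1, at 45308104, was partial at 63.7% ± 1.37 over 5672 summed reads. This site lies 251 bp from 45307853, which was at 99.9% ± 0.0161, and the values of the 2 sites did not overlap. The change into the right group was the largest of the window. It led from 26.8%, 32.8% and 29.3% at 45297146 to 100%, 100% and 97.7% at 45305663, 8517 bp further, a difference of 69.58 points ± 3.20 (SD, n = 3). Between them, 4 sparsely read sites had, from left to right, 85.7%, 79.3%, 54.8% and 35.0% of their reads methylated, with 14 to 31 reads each, so the level did not change at a single place between them. To the right of the group, 7 sparsely read sites up to 45313454 had between 77.5% and 100% of reads methylated, so methylation went on for at least 5118 bp beyond the last covered site. At the left edge of the window, 45216275 had 0 of 26 summed reads methylated (upper interval bound 13.2%) and 45219319 had 1 of 10.

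**Figure D2:**
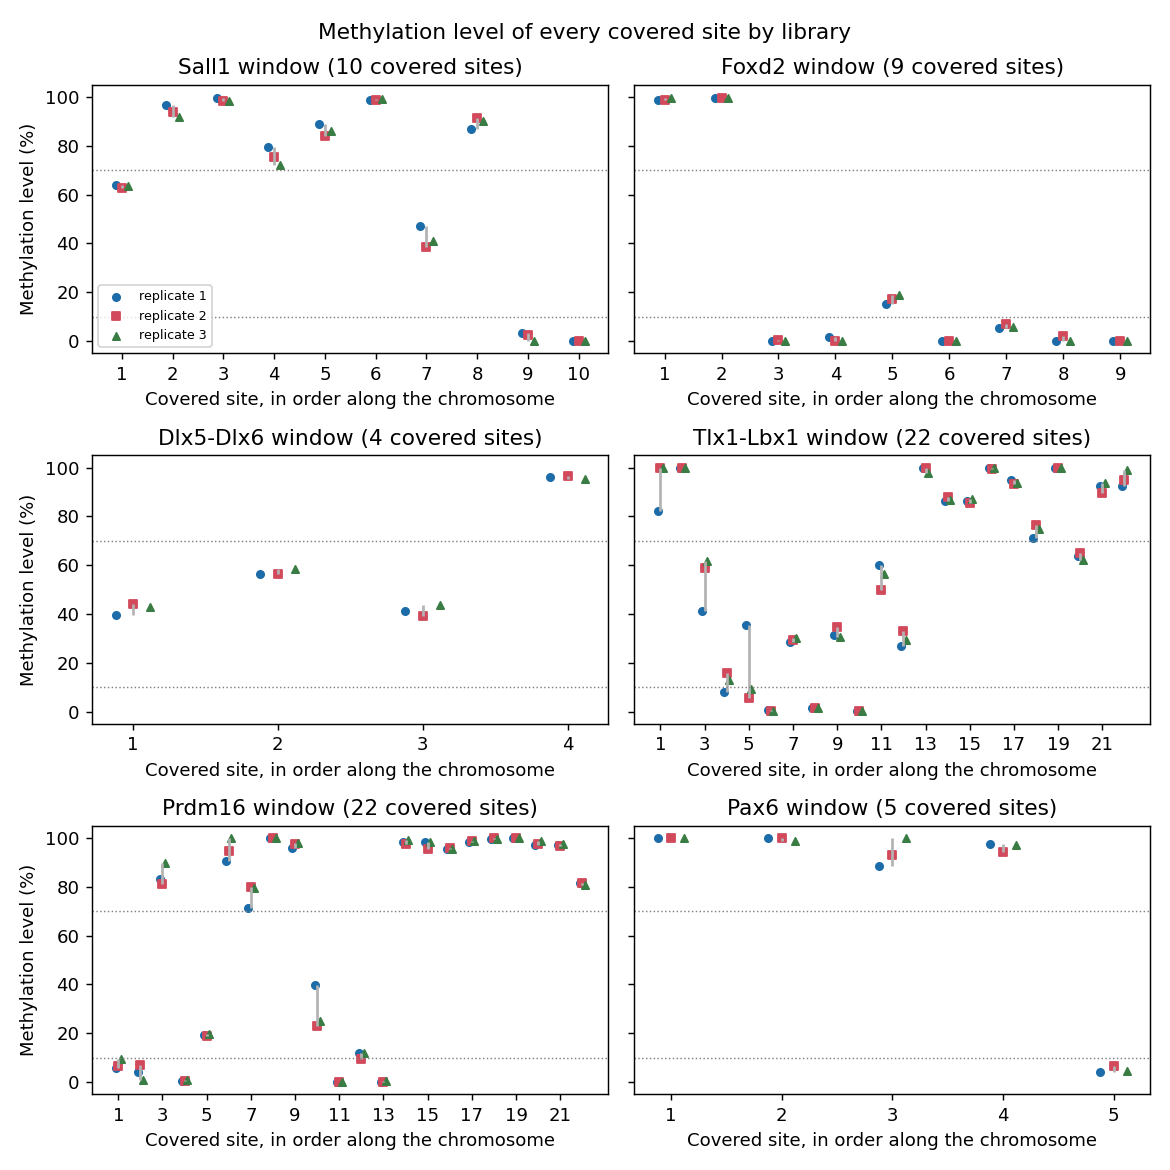
Methylation level (%) of all 72 covered sites, by window and in order along the chromosome. Each symbol is 1 library (circle, square and triangle for replicates 1, 2 and 3), grey lines join the lowest and highest library, and dotted lines mark 10% and 70%; the libraries lie close together at most sites, and the widest gap is at the fifth Tlx1-Lbx1 site (35.4% in replicate 1 against 5.56% and 9.43%).

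Prdm16 was the longest window, 330 kb, with 22 covered of 59 listed sites. Of these, 14 were high, 3 partial and 5 low, and the mean was 63.3% ± 0.517 (SD, n = 3). RefSeq gives Prdm16 on the minus strand, so its start lies toward the higher positions. The start was not placed among the listed sites, and the 1 CCCGGG of its RefSeq start window could not be matched by spacing. The right end of the window held 9 covered sites from 154009761 to 154011995, all high, between 81.3% and 100%. The deepest of them, 154010250, was at 98.4%, 98.8% and 98.8% over 3902 summed reads. At 154010792 all of 303, 308 and 365 reads were methylated, as were all 69 summed reads at 153915262 further left. The outermost site, 154011995, was the lowest of the 9, at 81.6%, 81.7% and 80.7%. A sparsely read site inside the group, 154010770, had 19 of 19 reads methylated.

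Further left, Prdm16 alternated between unmethylated and methylated places. The largest difference between adjacent covered sites spanned 54228 bp, from 153955533 at 0.2%, 0.2% and 0.367% to 154009761 at 98.5%, 97.8% and 99.3%. It was 98.28 points ± 0.67. A sparsely read site 3404 bp after 153955533 had 0 of 10 reads methylated, and between it and 154009761 no other site reached 10 summed reads. The level also changed over short distances. From 153709442 (3.95% ± 3.11) to 153709976 (84.8% ± 4.44) it was 80.82 points higher over 534 bp. From 153948445 (96.2%, 97.4% and 98.0%) to 153948588 (39.6%, 23.0% and 25.0%) the signed difference was -68.02 points ± 9.94 over 143 bp, the shortest distance of any such change in the 6 windows. The next site, 153949030, was the lowest of the window, with no methylated read among 406, 371 and 393 reads, which allows up to 0.256%. At 153847560 the level was partial in each library, at 19.1%, 18.9% and 19.9%.

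In the Pax6 window 5 of 14 listed sites were covered. The window mean of 79.0% ± 1.01 (SD, n = 3) was the highest of the 6 (with 50 reads required per library it was 67.1% over 3 sites, below the 86.7% of Sall1), and the sites were also the least read, with a median of 250 summed reads. At 105516547, the highest, all of 14, 14 and 29 reads were methylated, and 105521641 and 105522216 were at 99.6% ± 0.671 and 93.9% ± 5.73. The last pair of sites held the change. The site at 105536468, the deepest with 902 summed reads, was at 97.7%, 94.5% and 97.1%. The site 192 bp further, 105536660, the lowest, was at 4.11%, 6.74% and 4.55%. The signed difference was -91.29 points ± 3.11. RefSeq lists 2 Pax6 start windows, neither with CCCGGG. Sparsely read sites at 105520792 (24 of 25 reads) and 105527349 (10 of 10 reads) were methylated like the covered sites around them. Between these 2, a site at 105526070 with fewer than 10 summed reads had 0 of 8 methylated (upper interval bound 36.9%).

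Over the 6 windows, 38 covered sites were high, 17 partial and 17 low. Of all covered sites of the series, 38.8% were high, 15.9% partial and 45.3% low. The contrast lay in crowded sites. Among the 39 covered window sites that had 2 or more further listed sites within 500 bp, 25 were high and 7 low, while of the 7435 such sites outside the windows 23.6% were high and 62.5% low. The windows did not share this evenly. In Dlx5-Dlx6 the crowded covered sites were all partial, and Pax6 had no crowded site. All 9 covered Foxd2 sites were crowded, and 6 of them were low. Window sites with 1 neighbour were high in 7 of 22 cases, beside 39.3% outside, and those with none in 6 of 11, beside 56.9%. Since methylation at dense sites chose the windows, this contrast is what the choice was made on and not a result about these genes.

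**Figure D3:**
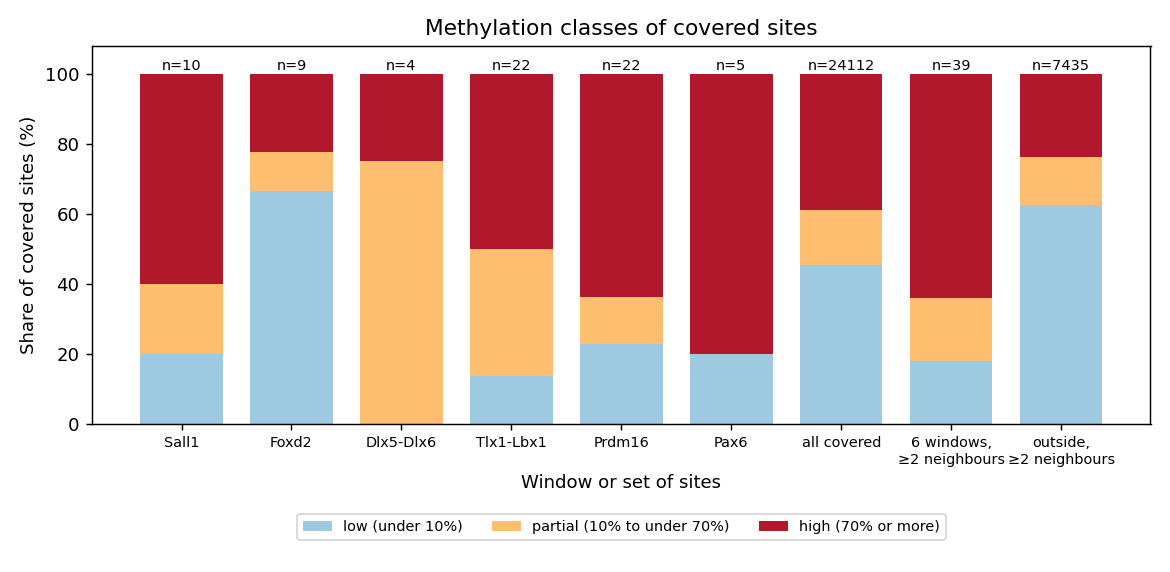
Share of covered sites (%) that were low, partial or high in each window, in all covered sites, in window sites with at least 2 listed neighbours within 500 bp and in such sites outside the windows; n is the number of sites. Foxd2 has the largest low share (6 of 9 sites) and Dlx5-Dlx6 has no low site, while 25 of 39 crowded window sites were high against 23.6% outside. None of these high crowded sites lies in Dlx5-Dlx6 or Pax6.

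The 72 sites formed 66 adjacent pairs within the windows, and 12 of these pairs differed by at least 50 points. In the whole series 33.5% of adjacent pairs did, and 17.3% of those up to 500 bp apart. Of the 40 window pairs up to 500 bp apart, 4 changed this much: both Sall1 changes, the one in Pax6 and the one in Prdm16 at 153948445. Of the 12 changes, 6 went up and 6 went down along the chromosome. Over all 66 pairs the median difference was 16.1 points, beside 15.6 in the whole series. The distances are unlike, since 16 of the 66 window pairs but 12659 of 24092 series pairs were over 1000 bp apart. Shares and medians over all distances are therefore not directly comparable. Up to 500 bp apart, the median was 13.0 points in the windows and 2.85 in the series. Of the 10 pairs up to 100 bp apart 0 differed by 50 points, beside 84 of the 621 such pairs of the series (13.5%). Their median difference was 9.08 points, beside 2.64 in the series, and the 2 Sall1 sites before the downstream start differed most. All these differences were computed from the levels that chose the windows. They are a description and not a result about these genes.

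**Figure D4:**
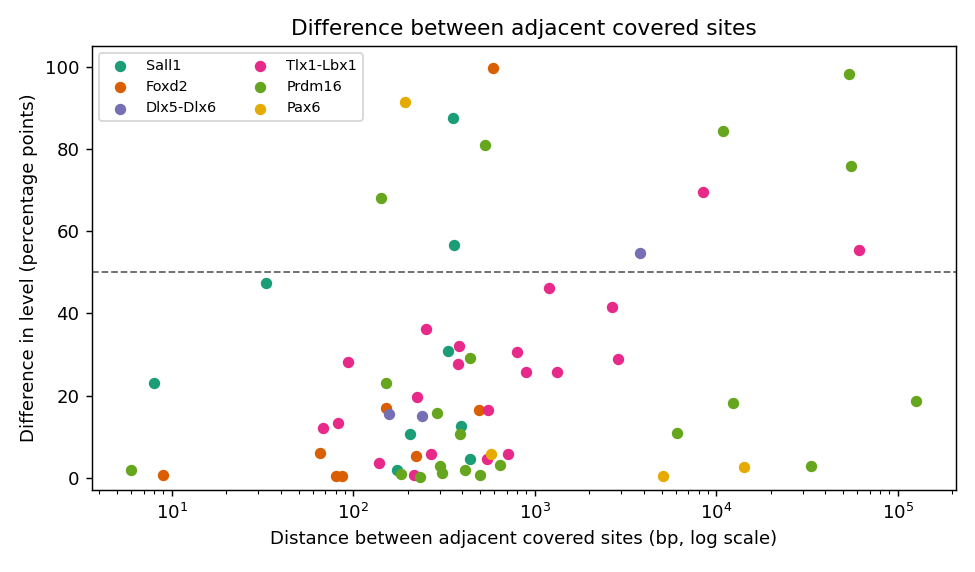
Difference in level (percentage points) between adjacent covered sites against their distance (bp, log scale), 1 point for each of 66 pairs and 1 colour per window; the dashed line marks 50 points. The 12 pairs on or above the line include 4 that are at most 500 bp apart.

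The levels of the 34 sparsely read sites were not themselves used to choose the windows. These sites lie in the chosen windows, some of them close to the covered sites, so their levels are not independent of the choice. They had 10 to 40 summed reads, and 456 of their 666 reads were methylated (68.5%, exact 95% interval 64.8% to 72.0%). This interval covers counting error only and not the spread between sites, which ran from 0% to 100%. Of the 34 sites, 17 lie in the Tlx1-Lbx1 window. By summed reads 23 were high, 6 partial and 5 low. In the 22265 sparsely read sites outside the windows 60.6% were high, 19.8% partial and 19.5% low. For 12 of the 34 the nearest covered site was at most 1000 bp away, and 6 of these 12 had the same class as that neighbour, beside 53.7% of 3079 such sites outside the windows. In 3 of the 12 (outside the windows in 8.87%), a high sparsely read site stood next to a low covered one: the Foxd2 sites at 114580837 and 114581137, and 153721180 in Prdm16, with 9 of 11 reads methylated beside 0.483%. Of these 3, 114580837 has a covered site at 99.7% on its other side, only somewhat further away than the low one. The Sall1 window had no sparsely read site with 10 summed reads.

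**Figure D5:**
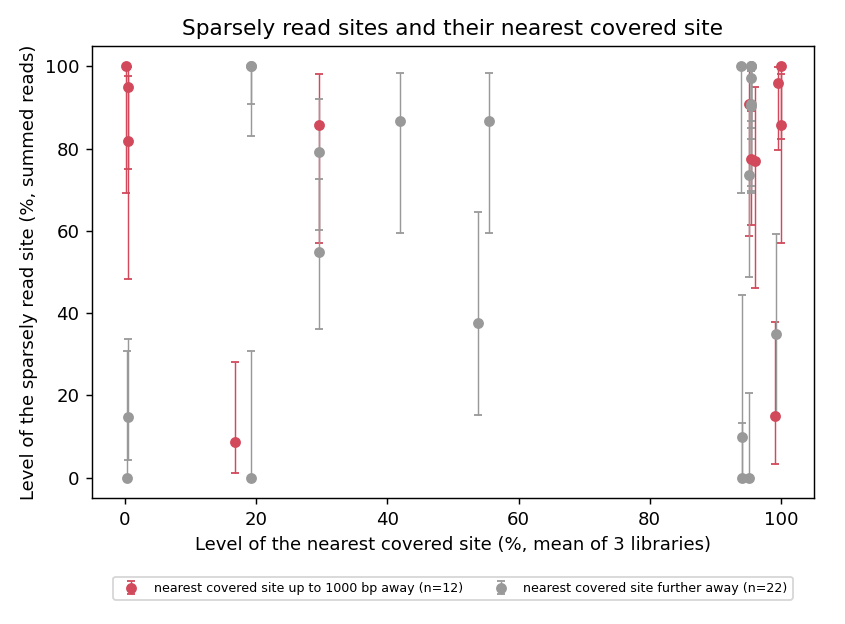
Level of each of 34 sparsely read sites (%, summed reads with exact 95% interval) against the level of its nearest covered site (%, mean of 3 libraries). The 3 red points at the upper left are high sites up to 1000 bp from a low covered site; grey points have their nearest covered site further away.

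Reads were unevenly spread over the sites. Covered window sites whose nearest listed site was 250 to 500 bp away had a median of 2331 summed reads, those at 100 to under 250 bp 345, those under 100 bp 720.5, and those with no listed site within 500 bp 121. The same classes had medians of 1749, 517.5, 461 and 96 reads over all covered sites. Levels at sites with no listed neighbour within 500 bp are thus the least precise here. Of the listed window sites, 11 of 78 with no neighbour within 500 bp were covered (14.1%), beside 4.84% of all such sites listed, so stretches with few CCCGGG sites are hardly described. The closest sites were also seldom covered in the series. With a neighbour under 100 bp away, 24 of 38 window sites were covered (63.2%), beside 12.0% of all such sites listed.

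The libraries were compared at every covered site by Fisher's exact test (two-sided, Benjamini-Hochberg adjustment over all 24112 sites, and at least 20 points of difference). No window site was called in any of the 3 pairs, where 0.00415%, 0.00415% and 0% of all covered sites were called for replicates 1 and 2, 1 and 3, and 2 and 3. The chi-square test also called 0 window sites. At an unadjusted Fisher p under 0.05, the counts were 5, 4 and 2 of 72 window sites, beside 3.02%, 3% and 2.84% of all covered sites. The lowest p belonged to 45229768 in the Tlx1-Lbx1 window. There 23 of 65, 2 of 36 and 5 of 53 reads were methylated (35.4%, 5.56% and 9.43%). Fisher's exact test gave an adjusted p of 0.358 for replicate 1 against 2 and 0.448 for replicate 1 against 3. Its mean of 16.8% was 7.49% without replicate 1, which moves it from partial to low. All 17 low and 38 high window sites had the same class in each library, as did 14 of the 17 partial ones. The median SD between libraries was 0.257 points at low, 2.14 at partial and 0.797 at high window sites, beside 0.134, 3.17 and 0.757 over all covered sites.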

How the data were processed

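The authors deposited, for each of 3 ID8 libraries, raw read counts (methylated, unmethylated, total) at 173449 CCCGGG sites and 2 percent columns, raw and adjusted. The raw percent equals methylated over total reads; the adjustment is not described in the labels or headers. Per the file headers, site identifiers name mm9. Bowtie2 and SAMtools, and the builds mm9 and rn4, are named in the submitters' processing notes. A deposited table of summed counts was not used.

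The 6 windows in mm9 were Sall1, chromosome 8, 91545000 to 91572000; Foxd2, chromosome 4, 114570000 to 114590000; Dlx5-Dlx6, chromosome 6, 6805000 to 6835000; Tlx1-Lbx1, chromosome 19, 45215000 to 45315000; Prdm16, chromosome 4, 153685000 to 154015000; and Pax6, chromosome 2, 105500000 to 105545000. Members, lists and limits were chosen with earlier results of these data known. Levels were computed from the deposited counts at sites with 10 reads or more in each library. Sites given in full are, per window, both sides of the largest change, the deepest, the highest and the lowest. No mm9 annotation was used: RefSeq (GRCm38.p6) gave gene order, strand and promoter sequences only, and exon, intron or UTR were not assigned. Fisher's exact test was run over all covered sites for each pair of libraries and tested on simulated data. Python 3.11.15, numpy 2.4.6, pandas 2.3.3 and scipy 1.17.1 were used. Alternatives were other read minimums, the adjusted percent, summed counts, other class and change limits, the chi-square test, and leaving out each library.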

Additional observations from a re-analysis of the deposited data

How the results depend on the processing

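Without 1 replicate the window means were 64.4% to 65.6% (Sall1), 24.7% to 25.0% (Foxd2) and 58.7% to 59.5% (Dlx5-Dlx6). They were 59.7% to 60.2% (Tlx1-Lbx1), 63.0% to 63.5% (Prdm16) and 78.5% to 79.5% (Pax6). With 3 libraries such a move is always smaller than their SD, so it was not set against the SD. At single sites leaving out a replicate could matter more: in the Tlx1-Lbx1 window 45229225 and 45229768 averaged 12.2% and 16.8%, but 14.3% and 7.49% without replicate 1. Requiring 20 reads per library moved Foxd2 to 27.9%, Tlx1-Lbx1 to 56.4%, Prdm16 to 61.5% and Pax6 to 73.8%. Requiring 50 reads gave 86.7% for Sall1, 37.1% for Foxd2, 50.7% for Tlx1-Lbx1, 61.7% for Prdm16 and 67.1% for Pax6, since fewer sites were left (50 of 72 over the windows). It also left 11 low sites and 7 changes of at least 50 points, against 17 and 12. Pax6 had the highest mean with 10 reads and Sall1 with 50. The authors' adjusted percent gave 70.4% for Sall1, 26.6% for Foxd2, 70.7% for Dlx5-Dlx6, 66.0% for Tlx1-Lbx1, 66.7% for Prdm16 and 80.7% for Pax6. A limit of 30 points gave 19 changes. Over all covered sites, 2 differed between libraries, with 0 to 1 when a replicate was left out (0 without replicate 1), and 0 in the windows in each case. Class limits of 20% and 80% gave 22 low, 15 partial and 35 high sites, against 17, 17 and 38. With the counts of the 3 libraries summed, each window mean moved by less than its SD between libraries. No paired analysis was possible because there is only 1 group.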

Other observations

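Lone pairs, in which 2 listed sites have only each other within 500 bp, were looked at after their values were seen. The windows hold 6 such pairs with both sites covered. In 3 of them a partial site stood beside a low one: 45233188 and 45233567 (29.3% ± 0.920 and 1.51% ± 0.162, SD, n = 3) and 45234363 and 45234744 (32.2% ± 2.05 and 0.165% ± 0.103) in the Tlx1-Lbx1 window, and 153955144 and 153955533 (11% ± 1.51 and 0.256% ± 0.0963) in Prdm16. These pairs are 379, 381 and 389 bp apart. In each, the left site was the higher one in 3 of 3 libraries. The partial site of the Prdm16 pair, 153955144, lies close to the 10% limit. It was at 11.8%, 9.26% and 11.9% in replicates 1, 2 and 3, which is low in replicate 2. Of the remaining pairs, 2 were high at both sites and 1, in Pax6, was high at the left and low at the right site. Outside the windows 375 of 3555 such pairs (10.5%) joined a low and a partial site, 939 were high at both sites, 976 low at both, 209 partial at both, 562 joined a low and a high site and 494 a partial and a high one.

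The start windows of the member genes in RefSeq held more CpG than most. The 8 windows of 5 genes had 16 to 39 CpG in 300 bases, with a median of 21, beside a median of 7 over all 32851 windows. Sall1 and Pax6 have more of these windows than the other genes. The lowest, those of Tlx1 and of a Pax6 start, were at percentile 67.0 of all windows. Dense CCCGGG sites, which contain CpG, helped to choose the genes, so this is a description and not a result about them. The window of the downstream Sall1 start, printed above without its last 50 bases, had 39.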
